A study of Mus musculus with 9 samples.

Results

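The enteroendocrine genes described here are 10 of the 36256 genes in the deposited expression table of mouse colon, matched by symbol. They are Chga and Chgb, which encode proteins of the hormone granule, Neurod1, a transcription factor of hormone cells, the peptide hormone genes Gcg, Pyy, Insl5, Nts, Cck and Sst, and Sstr2, a receptor for somatostatin. All 10 had enough counts to be tested. RNA was purified with oligo(dT) beads from the colons of 9 C57BL/6 mice, 3 chosen at random per group. NC mice were the controls, and MC mice had colitis induced with dextran sulfate sodium (DSS), which damages the lining of the colon, over 9 days. LRWE mice had the same 9 days of DSS and were dosed at 2.0 g/kg with Linderae Radix extract, prepared from Lindera aggregata root. The series title places the study in ulcerative colitis and JAK/STAT signalling. Age, sex, DSS dose and the segment of colon taken were not stated in the sources available. Whole tissue was sequenced, so fewer hormone cells and less RNA per cell cannot be told apart.

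Enteroendocrine cells are scattered single cells of the gut epithelium that sense the lumen and release peptides into blood and onto nearby nerves. Their hormones change along the gut: L cells of the colon make glucagon-like peptides from Gcg together with peptide YY, and Insl5 is typical of L cells of the distal colon, whereas Nts and Cck are typical of more proximal gut. Somatostatin, made by D cells and by some enteric neurons, acts through its receptors to restrain hormone release and secretion. Sst is also the gene in which the cyclic AMP response element, the DNA letters bound by CREB, was characterised.

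The 250 bases before the RefSeq start of 4 of these genes are shown because Sst and Sstr2 carry the whole response element and because Nts and Insl5, which had the widest ranges over the libraries, do not. Letters are 5′ to 3′ on the strand of the gene, in build GRCm38.p6, and capitals mark TGACG and its reverse complement CGTCA, which overlap in the whole element TGACGTCA.
Sst, chr16:23890845-23891094, minus strand: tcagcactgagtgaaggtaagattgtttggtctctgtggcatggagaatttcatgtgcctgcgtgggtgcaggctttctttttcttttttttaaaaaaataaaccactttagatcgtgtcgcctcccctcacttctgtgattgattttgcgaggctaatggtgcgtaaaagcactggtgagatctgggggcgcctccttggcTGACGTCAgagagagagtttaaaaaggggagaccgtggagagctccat
Sstr2, chr11:113619077-113619326, plus strand: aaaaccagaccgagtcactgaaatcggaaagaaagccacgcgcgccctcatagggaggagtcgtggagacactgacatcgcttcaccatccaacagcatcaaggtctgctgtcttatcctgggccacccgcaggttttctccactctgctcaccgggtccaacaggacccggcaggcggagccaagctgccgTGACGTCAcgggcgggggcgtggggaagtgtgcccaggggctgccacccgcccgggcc
Nts, chr10:102490419-102490668, minus strand: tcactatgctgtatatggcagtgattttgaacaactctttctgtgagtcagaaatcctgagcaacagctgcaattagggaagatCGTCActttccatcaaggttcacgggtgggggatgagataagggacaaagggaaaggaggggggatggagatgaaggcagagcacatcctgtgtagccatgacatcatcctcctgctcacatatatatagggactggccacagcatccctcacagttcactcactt
Insl5, chr4:103026729-103026978, minus strand: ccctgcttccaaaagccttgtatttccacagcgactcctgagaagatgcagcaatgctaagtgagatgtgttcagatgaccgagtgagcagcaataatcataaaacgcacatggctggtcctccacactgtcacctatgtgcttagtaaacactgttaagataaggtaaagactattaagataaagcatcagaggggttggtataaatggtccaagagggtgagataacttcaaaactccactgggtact

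The whole element began 48 bases before the start in Sst, 58 bases before it in Sstr2 and 72 bases before it in Chgb. Over the windows of 300 bases (250 before and 50 after the start) and both strands, 3 of the 10 genes held TGACGTCA, against 1.79% of 32851 RefSeq promoters. The shorter TGACG lay in 6 of 10, against 20.8% of promoters. The E-box CANNTG lay in 9 of 10, against 72.3%, and the E-box CAGATG, a form bound by NEUROD1, in Gcg, Insl5 and Cck, against 17.2%; CAGATG is one case of CANNTG. The 3 genes with the whole element had different profiles over the groups, described below. These are matches of letters and not measured sites.

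Library totals ran from 59042063 to 65042857 counts. LRWE 2 had a count in 21218 genes, where the other libraries had between 23238 and 26019. When limma weighted libraries by how well they followed their group, the lowest weights were 0.247 for LRWE 2, 0.385 for MC 2 and 0.494 for LRWE 1. MC 2 and LRWE 2 also stood apart in marker lists. MC 2 had the highest summed FPKM of 20 enteric neuron markers (1269) and a higher sum of distal colon markers than MC 1 or MC 3, and LRWE 2 had the lowest sum of neuron markers (80.75) and of 10 smooth muscle markers (808). Levels are FPKM, fragments scaled to transcript length and library size, which can be compared between genes, and fold changes and tests come from edgeR on counts, adjusted over all 21767 genes tested. Whether groups overlap was judged on CPM, counts scaled to library size after TMM.

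In MC, transcripts of Sst, Nts and Cck rose against NC, while the granins, Pyy, Gcg, Insl5 and Neurod1 did not pass the test in either direction. In LRWE the same 3 hormones were higher than in NC, and Insl5 fell. Between LRWE and MC no gene of the 10, and no gene of the 21767, passed. Sstr2 had the smallest unadjusted p and the largest log2 difference of the 10 in that comparison, with all LRWE libraries below all MC libraries.

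Counted together, 3 of the 10 genes were called higher and 0 lower in MC against NC. Of all genes tested, 6.37% were called in that comparison, 2.84% higher and 3.53% lower. In CPM, 4 of the 10 genes lay higher and 2 lower without overlap, against 19.5% and 20.1% of all genes (39.6% in either direction), and 6 had an unadjusted p under 0.05, against 24.3%. The median log2 difference of the 10 was -0.05, against -0.01 over all genes.

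In LRWE against MC 0 of the 10 genes were called, as were 0 of all genes (0% higher and 0% lower). Of the 10, 5 had an unadjusted p under 0.05, against 5139 genes or 23.6%, and DESeq2 called 2 of the 10 and 1749 genes. Without overlap, 2 of the 10 lay higher and 2 lower, against 14.3% and 14.1% of all genes (28.4% in either direction). The median was 0.02, against -0.03 over all genes.

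In LRWE against NC 3 of the 10 genes were called higher and 1 lower, against 10% of all genes, 6.04% higher and 3.97% lower. Without overlap, 4 lay higher and 2 lower, against 16.6% and 20.5% (37.1% in either direction), and 6 had an unadjusted p under 0.05, against 26.9%. The median was 0.01, against -0.05. Any pair of these comparisons shares a group of libraries, so the calls of Sst, Nts and Cck in both comparisons with NC are not independent.

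**Figure D1:**
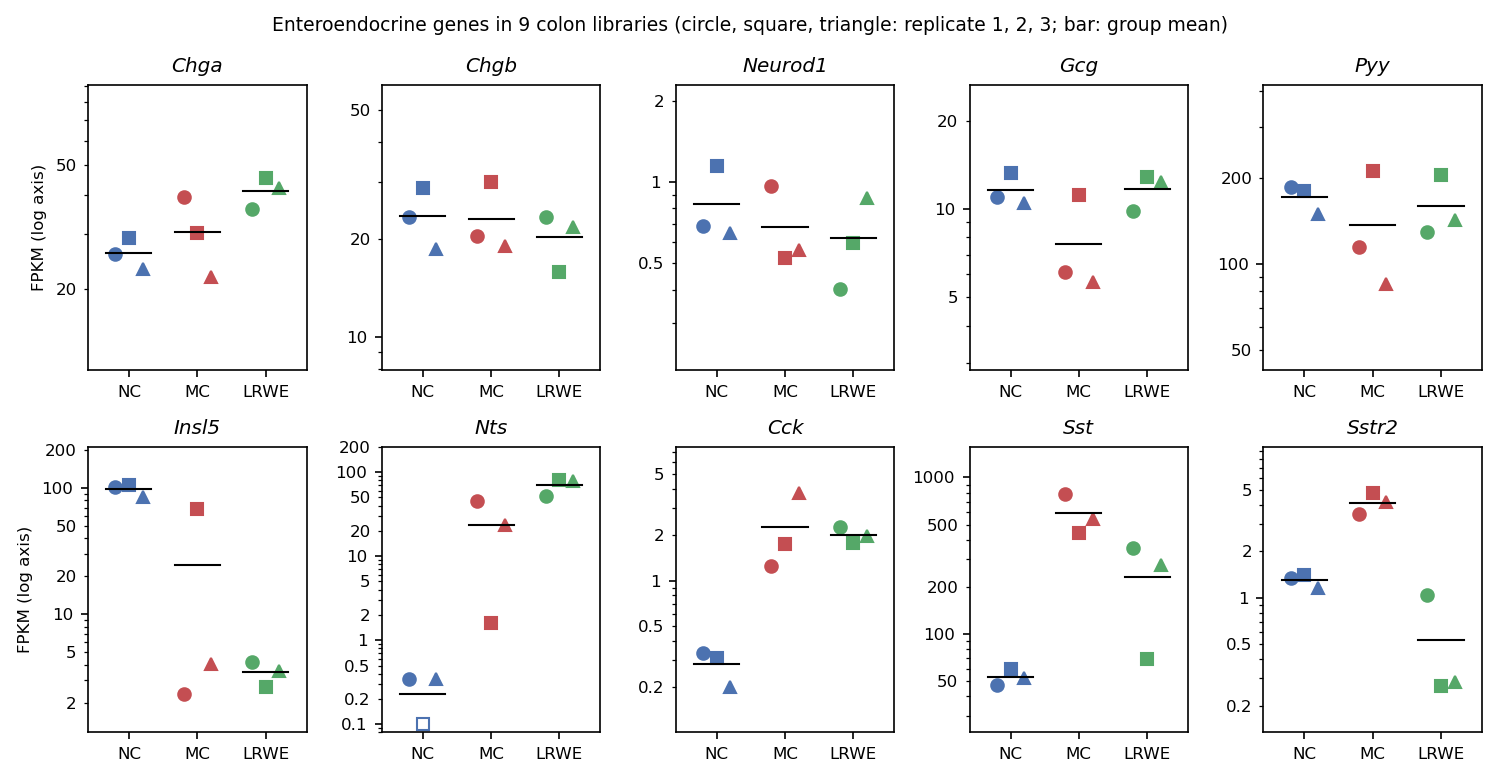
FPKM of the 10 genes in each library, on a log axis that differs between panels. Circles, squares and triangles are replicates 1, 2 and 3, bars are group means of 3 mice, and the open square for Nts marks NC 2, listed at 0 and drawn at 0.1. Sst and Nts lie higher in every MC library than in every NC library, and Insl5 in MC 2 (68.01 FPKM) sits near the NC libraries.

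Chromogranin A and chromogranin B condense hormones in dense-core granules. Chga (ENSMUSG00000021194, chromosome 12, 102521228 to 102531287 in the deposited coordinates, whose build is not named) stood at 25.97, 29.1 and 23.16 FPKM in NC, against 39.52, 30.16 and 21.88 in MC, and at 36.04, 45.55 and 42.18 in LRWE. The NC and MC libraries overlapped, and every LRWE library lay above every NC library. The log2 difference was 0.08 ± 0.23 (SE, 3 mice per group) in MC against NC (edgeR adjusted p = 0.865), 0.64 ± 0.23 from MC to LRWE (0.174) and 0.72 ± 0.23 from NC to LRWE (0.0823), so none passed. The last passed in DESeq2 (0.71, 0.0421) and with limma library weights (0.66, 0.021).

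Chgb (ENSMUSG00000027350, chromosome 2, 132623198 to 132636999) stood at 23.42, 28.88 and 18.72 FPKM in NC, against 20.52, 29.97 and 19.06 in MC, and at 23.45, 15.85 and 21.81 in LRWE. All 3 groups overlapped, with edgeR log2 differences of -0.19 ± 0.19, 0.00 ± 0.19 and -0.19 ± 0.19 in the same order of comparisons and adjusted p of 0.599, 0.994 and 0.57. The ratio of Chga to Chgb FPKM was 1.01 to 1.24 in NC, against 1.01 to 1.93 in MC and 1.54 to 2.87 in LRWE, with the highest value in LRWE 2.

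Neurod1 (ENSMUSG00000034701, chromosome 2, 79282865 to 79287095), which acts in hormone cells after they leave the progenitor state, was scarce. It stood at 0.6871, 1.152 and 0.648 FPKM in NC, against 0.9669, 0.5231 and 0.5627 in MC, and at 0.402, 0.5961 and 0.8722 in LRWE, with 69 to 215 counts per library. The groups overlapped in all 3 comparisons, and the edgeR adjusted p was 0.665, 0.959 and 0.698. Neurod1 overlaps Cerkl on the same strand in the deposited coordinates. Cerkl had at most 41 counts in a library.

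Gcg and Pyy, both made by L cells, kept a similar ratio. Gcg (ENSMUSG00000000394, chromosome 2, 62304874 to 62313994) stood at 10.97, 13.27 and 10.48 FPKM in NC, against 6.081, 11.15 and 5.654 in MC, and at 9.822, 12.88 and 12.38 in LRWE. In FPKM MC 2 lay above NC 1, NC 3 and LRWE 1, so MC overlapped both other groups. The groups separated only in CPM. There every MC library lay below every NC library and below every LRWE library. The nearest were MC 2 at 14.94 and LRWE 1 at 14.99. Gcg differed by -0.77 ± 0.26 in MC against NC (edgeR adjusted p = 0.109), 0.84 ± 0.26 in LRWE against MC (0.164) and 0.08 ± 0.26 in LRWE against NC (0.889). Without LRWE 1 the LRWE against MC difference was 1.01 with an adjusted p of 0.0455, and without MC 2 and LRWE 2 the MC against NC difference was -1.04 with 0.0153. With limma library weights Gcg passed in both (0.0068 in MC against NC and 0.0268 in LRWE against MC), and in DESeq2 it passed in LRWE against MC (0.0462).

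Pyy (ENSMUSG00000017311, chromosome 11, 101997502 to 101998658) was the most abundant of the 10 in NC, at 185.9, 179 and 149.3 FPKM. In MC it stood at 114.4, 211.2 and 85 FPKM, and in LRWE at 128.7, 204 and 142.6 FPKM. The highest value of all was in MC 2, and the groups overlapped in every comparison. Pyy differed by -0.51 ± 0.31 in MC against NC (edgeR adjusted p = 0.366), 0.46 ± 0.31 in LRWE against MC (0.389) and -0.05 ± 0.31 in LRWE against NC (0.948). The MC against NC difference was -0.85 without MC 2 (0.137), and it passed without MC 2 and LRWE 2 (-0.85, 0.0213) and with limma library weights (-0.75, 0.0217). Over all 9 libraries the ratio of Gcg to Pyy FPKM stayed between 0.0528 and 0.0868, and Gcg and Pyy were the closest pair among the 10 genes, with a root mean square difference of 0.227 between their centred log2 CPM.

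Insl5 (ENSMUSG00000066090, chromosome 4, 102875069 to 102884039), which encodes insulin-like peptide 5, fell in LRWE against NC. It stood at 101.5, 106.1 and 85.05 FPKM in NC, against 2.325, 68.01 and 4.03 in MC, and at 4.181, 2.651 and 3.582 in LRWE. MC 2 was the only DSS-treated library above 5 FPKM, and it too lay below every NC library. The log2 difference was -4.78 ± 1.12 in LRWE against NC, a level 27.6-fold lower (edgeR adjusted p = 0.031, lower in 3 of 3 libraries), -2.24 ± 0.99 in MC against NC (0.206) and -2.54 ± 1.02 in LRWE against MC (0.188).

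These Insl5 values turned on single libraries. Without MC 2 the MC against NC difference was -4.98 with an adjusted p of 0.00037, and the LRWE against MC difference became 0.20 with 0.767. With limma library weights the MC against NC difference was -4.51 with 0.000824. The LRWE against NC call did not pass when any one NC or LRWE library was left out (adjusted p 0.0617 to 0.0989), with log2 differences of -4.88 to -4.69. That call also did not pass with replicate number as a block. The ratio of Insl5 to Pyy was 0.546 to 0.593 in NC, against 0.322 in MC 2, 0.0203 and 0.0474 in the other MC libraries and 0.013 to 0.0325 in LRWE.

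Genes tied to position along the colon moved with Insl5. Hoxb13, a homeobox gene of the most distal gut, stood at 118, 152 and 104 FPKM in NC, against 0.528, 31 and 4.04 in MC, and at 0.792, 0 and 0.105 in LRWE. Its edgeR adjusted p was 0.145 for MC against NC and 0.0189 for LRWE against NC, where the log2 difference was -8.76 ± 1.76. The summed FPKM of 9 distal colon markers was 298.4 to 404.5 in NC, against 34.22 to 88.16 in MC, highest in MC 2, and 17.97 to 37.43 in LRWE; 2 of 9 fell in MC against NC and 5 of 9 in LRWE against NC, and those at 0 in a library were Hoxb13, Hoxd13, Hoxd12 and Hoxd11, each in LRWE. The part of colon position in the Insl5 values was not tested. Ppy, pancreatic polypeptide, was also low in MC 1, MC 3 and LRWE, and was chosen after its values were seen. It stood at 12.4, 17.3 and 16.3 FPKM in NC, against 1.56, 19.7 and 0.93 in MC. In LRWE it stood at 4.21, 5.75 and 3.41 FPKM, and no comparison gave a call. Unlike Insl5, Ppy in MC 2 lay above every NC library in FPKM.

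Nts and Cck, hormones of more proximal gut, were scarce in NC and rose with DSS. Nts (ENSMUSG00000019890, chromosome 10, 102317617 to 102326347), the neurotensin gene, stood at 0.3463, 0 and 0.3449 FPKM in NC, against 45.85, 1.611 and 23.47 in MC, and at 52.15, 80.02 and 78.43 in LRWE. All MC libraries lay above all NC libraries and all LRWE libraries above all MC libraries, with MC 2 nearest to NC at 130 counts against 30 in NC 3.

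Nts rose in MC against NC by a log2 difference of 6.55 ± 1.34 (edgeR adjusted p = 0.0252) and in LRWE against NC by 8.27 ± 1.43 (0.0113), higher in 3 of 3 libraries each time. LRWE against MC was 1.72 ± 1.03 (0.332). The MC call did not pass without NC 1, NC 2, NC 3, MC 1 or MC 3 (0.0638 to 0.103, log2 differences 5.69 to 7.0), and the LRWE call against NC did not pass without NC 1 (0.0569) or NC 3 (0.055). With limma library weights neither passed (0.118 for MC and 0.0585 for LRWE against NC). The MC call also did not pass in limma on unfiltered FPKM (0.0798) or in edgeR with replicate number as a block (0.0719).

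Osr2, a transcription factor gene in the list of proximal colon markers, stood at 0.467, 0.269 and 0.17 FPKM in NC, against 40.5, 0.645 and 9.62 in MC, and at 22.2, 53.5 and 50.9 in LRWE, and rose in both comparisons with NC (edgeR adjusted p 0.0373 and 0.0166). Of 11 proximal markers tested, 6 rose and 1, Gsdmc3, fell in MC against NC, and 6 rose in LRWE against NC. These risers differed in shape. Hoxb6, Hoxb7 and Hoxb8 resembled Osr2, with their lowest DSS-treated value in MC 2 and a positive LRWE against MC difference. Hoxb5 (28.2 FPKM) and Hoxb4 (5.42) in MC 2 lay between MC 1 (33 and 6.12) and MC 3 (23.7 and 4.93). Their LRWE against MC differences were negative, -0.38 ± 0.19 and -0.22 ± 0.21. No proximal marker was called in that comparison. The mean log2 CPM of the list, relative to the NC mean, was -0.21 to 0.22 in NC, against 2.45, 0.43 and 2.09 in MC and 2.25 to 2.94 in LRWE, lowest among the DSS-treated libraries in MC 2. The summed FPKM overlapped between groups, at 370.3 to 446.4 in NC, against 207.1 to 386.4 in MC and 259.7 to 507 in LRWE. Gsdmc2, Gsdmc3 and Gsdmc4 made up most of that sum in NC (160, 106 and 130 of 405.1 FPKM in NC 1). Hoxc6, Hoxc8 and Gata4 were at 0 in some libraries. The part of position in the Nts values was not tested.

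**Figure D2:**
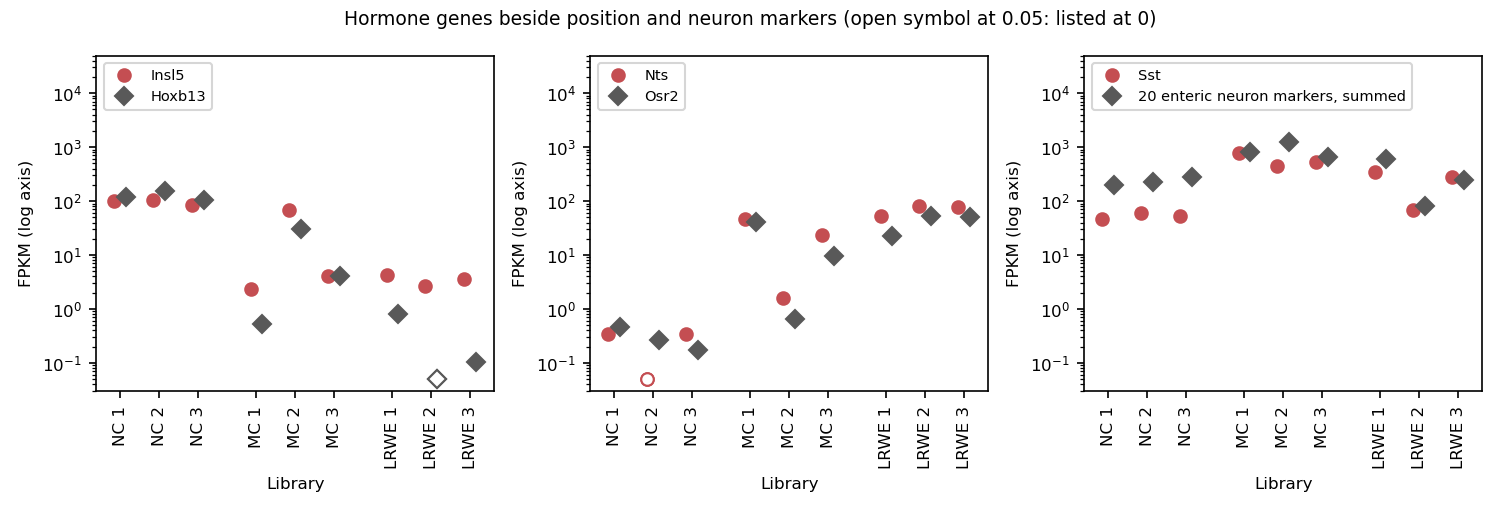
FPKM per library, on a log axis, of Insl5 beside Hoxb13, Nts beside Osr2, and Sst beside the sum of 20 enteric neuron markers. Red circles are the hormone gene, grey diamonds the marker, and open symbols are values listed at 0, drawn at 0.05. MC 2 is nearer to NC than MC 1 or MC 3 for Insl5 and Nts, and LRWE 2 is low for both Sst (69.08) and the neuron markers (80.75).

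Cck (ENSMUSG00000032532, chromosome 9, 121318890 to 121324705), the cholecystokinin gene, stood at 0.3343, 0.3106 and 0.2009 FPKM in NC, against 1.256, 1.73 and 3.793 in MC, and at 2.251, 1.761 and 1.967 in LRWE. Every MC and LRWE library lay above every NC library, and MC and LRWE overlapped. Cck rose by 2.85 ± 0.54 in MC against NC (edgeR adjusted p = 0.0193) and by 2.81 ± 0.54 in LRWE against NC (0.0158), and LRWE against MC was -0.05 ± 0.50 (0.967, 95% interval -1.17 to 1.08). Counts were 18 to 30 per library in NC. The MC call did not pass without any one NC library or MC 3 (0.0564 to 0.0923), with a log2 difference of 2.14 without MC 3. The LRWE call against NC did not pass without any one NC library (0.0608 to 0.0755). With replicate number as a block in edgeR the MC call (0.0819) and the LRWE call did not pass.

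Sst (ENSMUSG00000004366, chromosome 16, 23708323 to 23709708), the somatostatin gene, was the most abundant of the 10 in MC. It stood at 47, 59.68 and 52.52 FPKM in NC, against 785.2, 443.3 and 541 in MC, and at 353, 69.08 and 275.7 in LRWE. The 3 groups did not overlap, and LRWE 2 lay close to NC. Sst rose 10.2-fold in MC against NC, a log2 difference of 3.36 ± 0.50 (edgeR adjusted p = 0.00859, higher in 3 of 3 libraries), and 4.33-fold in LRWE against NC, 2.12 ± 0.47 (0.027).

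The LRWE against MC difference of Sst was -1.24 ± 0.46 with an adjusted p of 0.175, and did not pass; with limma library weights it did (-1.17, 0.0344). The MC call was just missed without NC 1 (0.054) or NC 2 (0.056). The LRWE call against NC was missed without any one NC library, LRWE 1 or LRWE 3 (0.0501 to 0.11), and in limma on unfiltered FPKM (0.114). It was also missed in edgeR with replicate number as a block.

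The sum of the enteric neuron markers was also highest in MC. The summed FPKM of the 20 markers was 197.8, 228.7 and 276.9 in NC, against 818.4, 1269 and 659.2 in MC, and 595.5, 80.75 and 250.5 in LRWE. Of the 20, all had a positive difference in MC against NC and 1, Gal, rose, where 6.37% of all genes were called. For Vip that difference came from MC 2: it stood at 40.1, 45.1 and 46.3 FPKM in NC, against 36.6, 260 and 39.5 in MC. All 20 had a negative difference in LRWE against MC with no call, and no marker was at 0 in any library. The ratio of Sst to this sum was 0.238, 0.261 and 0.19 in NC, against 0.959, 0.349 and 0.821 in MC, and 0.593, 0.856 and 1.1 in LRWE, so it was higher in every DSS-treated library than in every NC library. How much of the Sst RNA came from D cells and how much from neurons was not tested.

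Sstr2 (ENSMUSG00000047904, chromosome 11, 113510168 to 113516854), a receptor that couples somatostatin to inhibition of cyclic AMP, was highest in MC and lowest in LRWE. It stood at 1.355, 1.415 and 1.161 FPKM in NC, against 3.501, 4.781 and 4.159 in MC, and at 1.05, 0.2677 and 0.2844 in LRWE. No library of one group overlapped another group. Sstr2 had 40 counts in LRWE 2 and 42 in LRWE 3, against 495 to 660 in MC.

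The LRWE against MC difference of Sstr2 was -2.83 ± 0.49, a level 7.09-fold lower, with an unadjusted p of 0.000283. That p ranked 7 of 21767, and the adjusted p was 0.164. DESeq2 gave an adjusted p of 4.97e-06, limma with library weights 0.0268, and edgeR without LRWE 1 gave -3.64 with 0.031. Over all alternatives the adjusted p of this difference ran from 4.97e-06 to 0.484 and the difference from -3.64 to -1.78. In the same comparison all 20 enteric neuron markers and all 10 smooth muscle markers had a negative difference with no call, with medians of -1.52 and -0.88. Smooth muscle markers summed to FPKM values of 4186, 3302 and 2939 in NC, against 4338, 2801 and 2339 in MC, and 2405, 808 and 1534 in LRWE, and none was at 0. The part of these cells in the Sstr2 difference was not tested.

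MC against NC gave 1.51 ± 0.47 for Sstr2 (edgeR adjusted p = 0.0889), and 7 of 22 alternatives passed. These were DESeq2 (0.0106), limma on log2(FPKM + 1) with a filter (0.0129) and without (0.0282), and those 2 groups alone (0.00578). The others that passed were library weights (0.00268) and the fits without LRWE 1 (0.0148) or LRWE 2 (0.0437). The remaining 15 did not pass. Among them were the fits without any one NC or MC library (0.16 to 0.254), the replicate block (0.148) and limma on log2(FPKM + 0.1) (0.0523). LRWE against NC gave -1.31 ± 0.47 for Sstr2 (edgeR adjusted p = 0.112). It passed in 3 of 22 alternatives: without LRWE 1 (-2.13, 0.0104), in DESeq2 (0.0387) and with library weights (0.00655). Sstr2 overlaps Slc39a11 on the opposite strand in the deposited coordinates, and no source used here says whether counting took strand into account. Slc39a11 had up to 2119 counts and a positive difference in LRWE against MC, of 0.95 ± 0.27 (adjusted p = 0.164). The other somatostatin receptors passed in no comparison, among them Sstr1, at 0.509 to 0.983 FPKM in NC, against 1.53 to 4.8 in MC and 0.405 to 3.93 in LRWE.

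**Figure D3:**
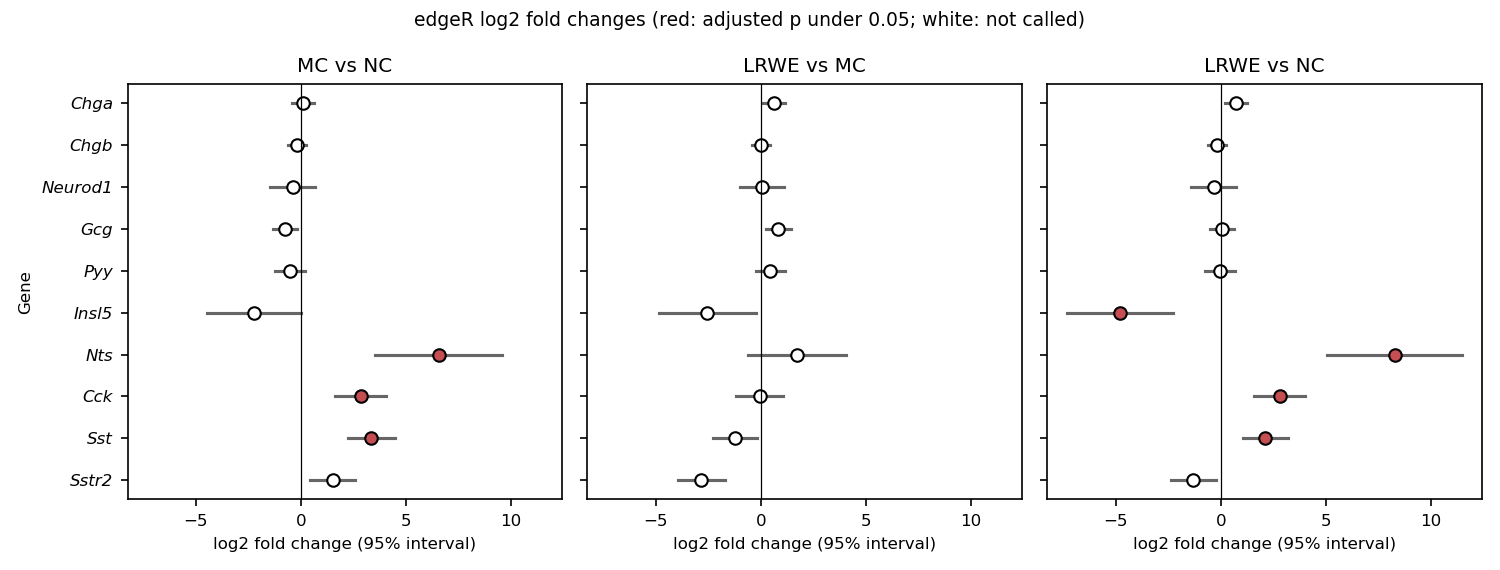
edgeR log2 fold changes of the 10 genes in the 3 comparisons, with 95% intervals; red points have an adjusted p under 0.05. Sst, Nts and Cck are called in both comparisons with NC, Insl5 in LRWE against NC, and the interval of Sstr2 in LRWE against MC, -3.94 to -1.71, is among those that exclude 0 without a call.

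Pyy was the largest part of the hormone transcripts in NC and Sst in MC. The summed FPKM of Sst, Pyy, Gcg, Nts, Insl5 and Cck was 346.1, 358.3 and 297.9 in NC, against 955.1, 737 and 662.9 in MC, and 550.1, 370.4 and 514.6 in LRWE. Sst made up 13.6% to 17.6% of the sum in NC, against 60.1% to 82.2% in MC, and 64.2%, 18.7% and 53.6% in LRWE. Insl5 made up 28.5% to 29.6% in NC, against 0.243%, 9.23% and 0.608% in MC, and 0.696% to 0.76% in LRWE.

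Pyy made up 50% to 53.7% in NC, against 12% to 28.7% in MC and 23.4% to 55.1% in LRWE, highest in LRWE 2. Nts made up 9.48%, 21.6% and 15.2% in LRWE and at most 4.8% in MC. The ratio of Sst to Pyy was 0.253 to 0.352 in NC, against 6.86, 2.1 and 6.36 in MC, and 2.74, 0.339 and 1.93 in LRWE. These shares describe the libraries and were not tested.

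**Figure D4:**
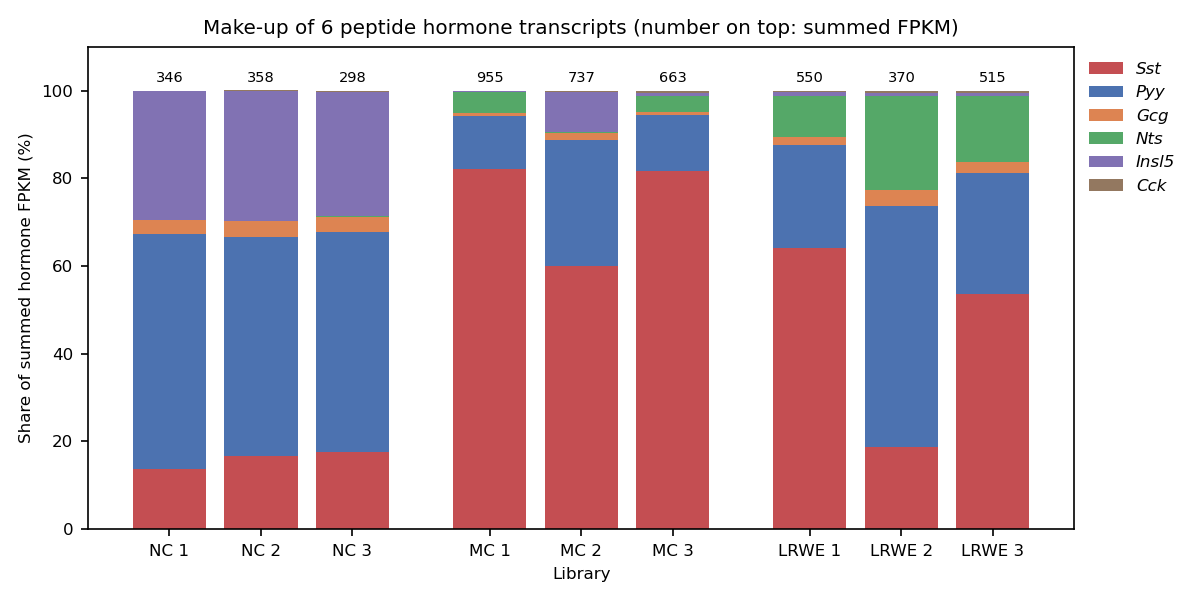
Share of each hormone gene in the summed FPKM of 6 peptide hormones, in percent, for each library, with the sum printed above each bar. Sst takes the largest share in the MC libraries, in LRWE 1 and in LRWE 3, and Pyy in the NC libraries and LRWE 2.

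Genes around the hormones were read from lists chosen by role. Over all genes tested, 6.37% were called in MC against NC, 0% in LRWE against MC and 10% in LRWE against NC. A single call in a list of 16 or 17 genes is near the MC against NC share and describes that gene, not the list. These shares also apply to the counts called in the marker lists above and below. Of 23 granule and prohormone processing genes tested, 22 had a positive difference in MC against NC, with a median of 1.76, and 4 rose. These were Vgf (2.83 ± 0.59, edgeR adjusted p = 0.0274), a granule protein, Scg3 (1.89 ± 0.44, 0.04), which binds chromogranin A, Slc18a2 (1.76 ± 0.41, 0.0408), a vesicular monoamine transporter, and Pcsk1n (1.49 ± 0.36, 0.0431), an inhibitor of prohormone convertase. In LRWE against MC 21 of 23 had a negative difference, with a median of -1.13 and 0 called, and in LRWE against NC the median was 0.46 and Cpn1, a carboxypeptidase subunit, was the 1 gene that rose (4.35 ± 0.93, 0.0237). Cpe, a carboxypeptidase and the most abundant of the list, passed in no comparison. Enteric neurons express many of these genes too. The summed FPKM of the list, like that of the neuron markers, was highest in MC 2 (737.5) and lowest in LRWE 2 (87.86). Snap25 is in both lists. The part of neurons in the values of the granule list was not tested.

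**Figure D5:**
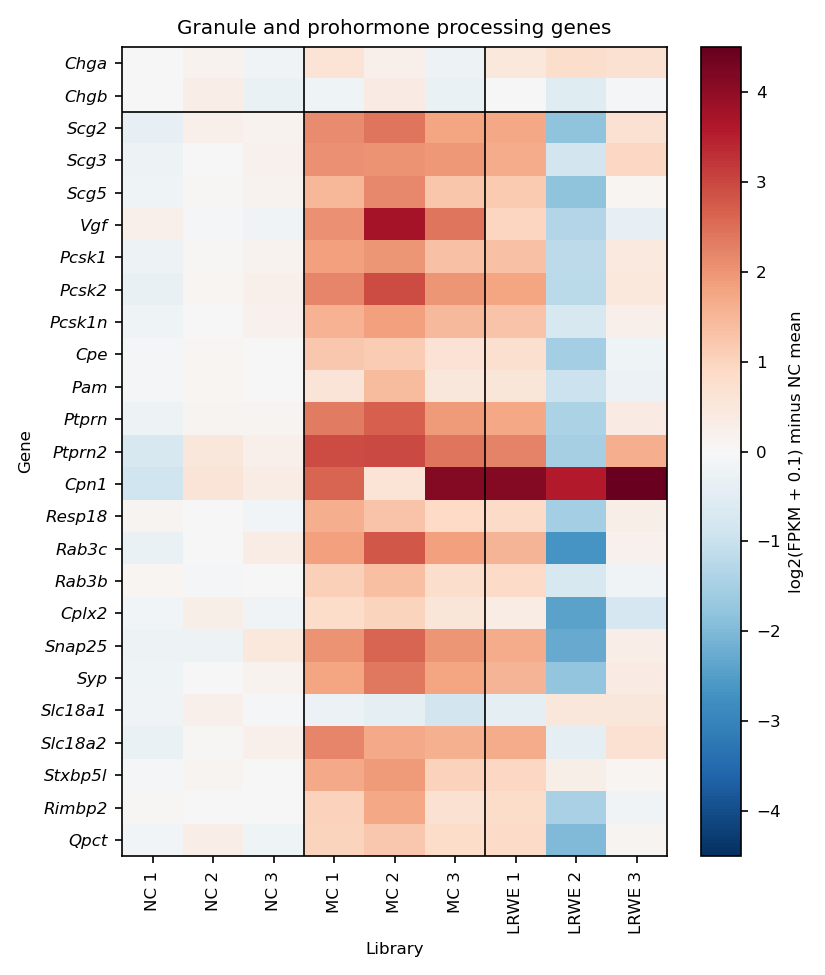
log2(FPKM + 0.1) of Chga, Chgb (above the line) and 23 granule and prohormone processing genes in each library, minus the NC mean of the gene. Most of the 23 are above NC in the MC libraries and LRWE 1 and below NC in LRWE 2, while Chga and Chgb differ less.

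Of 17 tested transcription factors of the hormone lineage, 13 had a negative difference in MC against NC (median -0.83) and 1, Foxa2, fell. Foxa2, a forkhead factor of gut epithelium, stood at 8.68, 11.5 and 11.5 FPKM in NC, against 1, 1.92 and 1.82 in MC, and at 1.95, 0.356 and 1.25 in LRWE. It fell by 2.87 on the log2 scale in MC (edgeR adjusted p = 0.0149) and by 3.17 in LRWE against NC (0.00862). Foxa1, the most abundant of the list, passed in no comparison, and Neurog3, the factor that starts the lineage, was at or under 0.531 FPKM and was not tested.

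Among the other gut peptides, Cartpt, a peptide of enteric neurons, rose in MC against NC by 3.12 ± 0.68 (edgeR adjusted p = 0.0318) and was the 1 call among 11 tested. In LRWE against NC 3 of 11 rose: Sct, the secretin gene of proximal hormone cells, by 3.87 ± 0.72 (0.0144), and the guanylin genes Guca2a (2.28 ± 0.45, 0.0179) and Guca2b (2.95 ± 0.56, 0.0158), whose products drive epithelial fluid secretion. Sct stood at 2.01, 1.65 and 1.32 FPKM in NC, against 13.7, 1.8 and 11.9 in MC, and at 17.5, 26.3 and 27.2 in LRWE, with MC 2 inside the NC range. Penk, proenkephalin, stood at 16.9 to 28.4 FPKM in NC, against 121 to 343 in MC and 9.03 to 103 in LRWE without a call.

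Among 16 tested receptors for these peptides, Glp1r, the receptor for glucagon-like peptide 1, was the 1 that rose in MC against NC (3.54 ± 0.76, edgeR adjusted p = 0.0291) and in LRWE against NC (2.83 ± 0.74, 0.0441). Glp1r was scarce, at 0.0301 to 0.0576 FPKM in NC, against 0.426 to 0.681 in MC, and 0.596, 0.055 and 0.296 in LRWE. Rxfp4, the receptor for Insl5, was at or under 0.398 FPKM and not tested. Sort1, a sorting receptor that binds neurotensin and the most abundant of the list, passed in no comparison, nor did Npy4r, a receptor for pancreatic polypeptide and the next in abundance.

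Of 16 tested nutrient and bile acid sensors 1 fell in MC against NC, the glucose transporter gene Slc5a1 (-1.40 ± 0.26, edgeR adjusted p = 0.0184). It stood at 22.9 to 28.2 FPKM in NC, against 7.52 to 13.5 in MC and 19.4 to 27.3 in LRWE, with no call in LRWE against MC (1.32 ± 0.26, 0.164). In LRWE against NC the fatty acid receptor genes Ffar2 (1.92 ± 0.44, 0.0291) and Ffar4 (1.11 ± 0.26, 0.0303) rose, and Olfr78, an olfactory receptor gene expressed in gut hormone cells, fell (-2.57 ± 0.38, 0.00647).

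Of 9 genes for enzymes that cut peptides, Ece1, endothelin-converting enzyme, rose in MC against NC (0.90 ± 0.13, edgeR adjusted p = 0.00727) and in LRWE against NC (0.97 ± 0.13, 0.00481). Dpp4, which inactivates glucagon-like peptide 1, fell in MC against NC (-1.62 ± 0.35, 0.0289), and Anpep, aminopeptidase N, fell in both (-1.57 ± 0.34, 0.0316, and -2.13 ± 0.35, 0.00948). Ace, angiotensin-converting enzyme, fell in LRWE against NC (-1.52 ± 0.41, 0.0482). Thop1, thimet oligopeptidase, which cuts neurotensin, passed in no comparison.

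Markers of other cells that could hold these transcripts were read the same way. Of 6 genes listed for serotonin handling and enterochromaffin cells, Ddc and Slc6a4, in serotonin synthesis and uptake, fell in MC and in LRWE against NC. Tph1, which commits tryptophan to serotonin, passed in no comparison and was never at 0. Slc18a1, Lmx1a and Gch1 also passed in no comparison. Whether Ddc and Slc6a4 came from enterochromaffin cells or from other epithelium was not tested. The summed FPKM of 14 epithelial markers was 5194 to 6823 in NC, against 4242 to 6285 in MC and 6953 to 8518 in LRWE. In LRWE against NC 3 rose and 1 fell. In LRWE against MC 13 of 14 had a positive difference, with a median of 0.645 and 0 called. The part of epithelium in the Gcg and Chga differences of that comparison was not tested. The mean log2 CPM of 8 glial markers, relative to the NC mean, was -0.06 to 0.06 in NC, against 0.58 to 0.77 in MC, and 0.42, -1.09 and 0.31 in LRWE. Gfap rose in both comparisons with NC, and Entpd2 rose in LRWE against NC (0.67 ± 0.17, edgeR adjusted p = 0.0434). Their summed FPKM, 75.94 to 129.1 over all libraries, was in NC mostly Erbb3 (73.1 of 97.94 FPKM in NC 1). Pancreatic tissue would also carry Gcg, Sst and Ppy. The summed FPKM of 5 islet markers in the table was 14.05 to 17.68 in NC, against 1.054 to 19.96 in MC and 4.595 to 8.187 in LRWE, and Ppy made up most of it where the sum was high. Of the other islet markers, Ins1 was listed at 0 in every library except LRWE 2 (0.355 FPKM), Iapp reached 2.08 FPKM in LRWE 2, G6pc2 reached 1.59 FPKM in NC 1, and Slc2a2 was at or under 0.0445 FPKM. Acinar markers, 5 in all, summed to 0.736 FPKM or less. A pancreatic part in the hormone values was not tested.

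The genes with the profile most like each hormone, by root mean square difference of centred log2 CPM over the 9 libraries among 16076 genes, were Unc5d (0.326), Glp1r (0.338) and Npnt (0.344) for Sst, whose own profile had a root mean square of 1.47. Nts had Prkg2 (0.643), Myl7 (1.21) and Isx (1.25) nearest, against 4.08 for its own profile. Insl5 had Gm48832 (0.482), Clic6 (0.527) and Trpv3 (0.536), against 2.35, and Clic6 fell in MC and in LRWE against NC. Sstr2 had Cacna1g (0.389), a T-type calcium channel gene, BC034090 (0.444) and 4833422C13Rik (0.483), against 1.32. Cck had Bglap3 (0.376), Krt12 (0.415) and 2210009P08Rik (0.431), against 1.35.

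Chga, Chgb, Gcg, Pyy and Neurod1, whose own profiles had a root mean square of 0.206 to 0.47, had neighbours within 0.08 to 0.234, of which the nearest were Unc50, Dyrk1a, Cbx8, 9130019O22Rik and Zfp169 in that order. This likeness is a description over the same 9 libraries.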

How the data were processed

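RNA from the colon of 9 mice was sequenced, 3 per group. Per the file headers, the deposited table held FPKM, scaled by the authors to length and library size, and whole-number counts. The deposited counts were taken to be estimated counts rounded by the authors, because the submitters' processing notes name StringTie 1.3.4d; how they were made is not stated. Those notes also name cutadapt 1.9, HISAT2 2.0.4, edgeR and the build hg38, which cannot be that of mouse genes; deposited coordinates are given without a build and were not combined with GRCm38.p6.

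Genes were kept by filterByExpr (21767 of 36256), scaled by TMM and tested in 1 edgeR 4.0.16 quasi-likelihood fit of all 9 libraries under R 4.3.3, with Benjamini-Hochberg adjustment over all tested genes and calls at an adjusted p under 0.05. SE is the log2 difference over the square root of F, and a prior count of 2 went into log2 CPM. DESeq2 1.42.0, limma 3.58.1 and other settings were alternatives.

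The 10 genes and the lists were chosen with earlier results of these data known. Named genes are the 10, up to 6 called members per list and comparison, the 2 most abundant of a list where fewer than 2 were called, and the 3 likest genes; others (among them Ppy, Sstr1, Slc39a11, Cerkl, and those said to be at 0 or not tested) were chosen after their values were seen. Replicate numbers are not tied to a litter or day by the labels. Counts carry no molecular identifiers, and errors cover spread between mice with counting error.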

Additional observations from a re-analysis of the deposited data

How the results depend on the processing

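The 30 differences (10 genes, 3 comparisons) were recomputed under 22 alternatives, 1 of them, without MC 2 and LRWE 2, chosen after seeing the data. Of the 30, 7 kept their direction and side of the threshold under all of them and 7 changed sign under at least 1; in all, 36 values lost a call, 26 gained one and 30 changed sign. DESeq2 gave no adjusted p for Insl5.

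Members called in MC against NC (3) were 1 with the replicate block, 6 with voom quality weights, 6 without MC 2 and LRWE 2, and 0 to 4 with one library left out. Members called in LRWE against MC (0) were 2 with DESeq2, 3 with voom weights, and 0 to 2 with one library left out. Members called in LRWE against NC (4) were 1 with the replicate block and 0 to 4 with one library left out.

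All genes called in MC against NC (1386) were 3722 with DESeq2, 2316 with limma on log2(FPKM + 1), 3781 with only those 2 groups, 306 with the replicate block, 5205 with voom weights, 3301 without MC 2 and LRWE 2, and 281 (without NC 1) to 3318 (without LRWE 2) with one left out. All genes called in LRWE against MC (0) were 1749 with DESeq2, 2901 with voom weights and 0 to 2436 (without LRWE 1) with one left out. All genes called in LRWE against NC (2179) were 4393 with DESeq2, 600 with the replicate block, 6142 with voom weights and 459 (without NC 2) to 2725 with one left out. The causes were not tested.

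Changes of sign were in differences that passed nowhere. For LRWE against MC, Neurod1 gave -0.16 with library totals, -0.01 with no filter, -0.05, -0.12 and -0.05 with limma on FPKM, and -0.21 without MC 2 and LRWE 2; Chgb gave 0.01 with the block, 0.15 with voom weights and 0.21 without MC 2 and LRWE 2; Cck gave 0.05 with the block and 0.11 with voom weights; Insl5 gave 0.29 without MC 2 and LRWE 2. For LRWE against NC, Gcg gave -0.01 with library totals, 0.00 with no filter and -0.09 without MC 2 and LRWE 2. With one library left out, Chga ran from -0.17 to 0.23 in MC against NC, Neurod1 ran from -0.24 to 0.39 in LRWE against MC, Chgb ran from -0.07 to 0.13 in LRWE against MC, Insl5 ran from -3.08 to 0.20 in LRWE against MC, Cck ran from -0.34 to 0.66 in LRWE against MC, Gcg ran from -0.09 to 0.24 in LRWE against NC and Pyy ran from -0.38 to 0.14 in LRWE against NC.

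Replicates with the same number did not deviate together (r from -0.162 to 0.031). This correlation cannot show whether they share a litter, cage or day, which the labels do not give. With 3 mice per group, 40 to 42 counts of Sstr2 in 2 LRWE libraries and 0 to 30 of Nts and Cck in NC limit these differences.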
